A study of Sus scrofa with 2 samples.

Results

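The thick ascending limb of the loop of Henle was examined in single-nucleus RNA sequencing (snRNA-seq) data of pig renal cortex, in 1 unperfused and 1 perfused library. A barcode with 500 to 6000 detected genes was taken as a thick limb nucleus when SLC12A1 reached at least 20 per 10000 unique molecular tags (UMIs, which count RNA molecules). In addition, LRP2 and CUBN together had to stay under 30, SLC12A3 and HS6ST3 together under 5, and SLC8A1 under 50 per 10000 UMIs, to leave out proximal, distal convoluted and connecting tubule. This selected 1626 of the 13384 barcodes in the files, or 737 of the 7035 unperfused and 889 of the 5920 perfused barcodes with 500 to 6000 genes.

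The kidneys came from slaughtered pigs, were flushed with heparinised saline and were stored at 4 °C for about 2 h. The unperfused cortex was taken before machine perfusion (0 h). The perfused cortex was taken once the isolated kidney had been perfused for 2 h at 37 °C and 100 mmHg, a setting with raised glomerular pressure. Both tissues are labelled only as kidney, and strain, sex, age and whether both pieces came from 1 animal are not given in the sources used here. With 1 library per condition, no test between conditions was possible, and the animal, the piece of cortex and the library cannot be told apart from perfusion. Exact intervals at 95% stand in brackets. They hold counting error alone and are too narrow for genes whose UMIs lie in few nuclei.

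The thick ascending limb reabsorbs salt without water. The cotransporter NKCC2, encoded by SLC12A1, brings sodium, potassium and chloride into the cell, the channel ROMK (KCNJ1) returns potassium to the lumen, and the sodium pump extrudes sodium on the blood side. The resulting lumen-positive voltage drives cations between the cells through pores made of claudins, of which CLDN10 favours sodium and CLDN16 with CLDN19 favours calcium and magnesium. The calcium-sensing receptor CASR adjusts this reabsorption, and uromodulin (UMOD) is secreted by the segment into the urine. Where the limb passes its own glomerulus, it carries the macula densa, a plaque of cells that senses luminal salt.

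Unperfused thick limb nuclei held 3495022 UMIs and perfused ones 5755921 UMIs. The median nucleus had 4184 UMIs and 2198 genes without perfusion and 5901 UMIs and 2625 genes with it. All other nuclei had a median of 3966 and 4214 UMIs. The share of thick limb nuclei was 10.5% (9.77 to 11.2) without perfusion and 15% (14.1 to 16) with it. A share of nuclei also moves with the number of all other nuclei, and nuclei that met a distal convoluted tubule rule (SLC12A3 at least 10 and SLC12A1 under 20 per 10000 UMIs, with the limits on LRP2, CUBN and SLC8A1 kept) numbered 143 and 22. Mitochondrial UMIs made up 0.0866% and 0.154% of all UMIs of thick limb nuclei, and no thick limb nucleus exceeded 7%. Of 14 barcode sequences present in both libraries, 2 were thick limb nuclei in each library and 0 in both.

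SLC12A1 alone selected 910 unperfused and 1031 perfused barcodes. The limits on other tubule genes then removed 173 and 142 of these, most often through SLC12A3 and HS6ST3 without perfusion (109) and through LRP2 and CUBN with it (73). The members nearest to the SLC12A1 threshold had 20.2 and 20.1 per 10000 UMIs, and the nearest barcodes outside it lay just under 20 without perfusion and at 19.6 with it. SLC12A1 in the median member stood at 78.8 per 10000 UMIs without perfusion and 87.0 with it.

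The label was checked against 6 thick limb markers, of which only SLC12A1 took part in the rule. Their summed level was 12672 UMIs per 1000000 UMIs (CPM) in unperfused and 14498 CPM in perfused thick limb nuclei, against 762 and 903 CPM in all other nuclei. SLC12A1, whose level the rule fixed, held 7625 and 8593 CPM of these sums, so they check the label only in part. None of the 6 was at 0. UMOD had at least 1 UMI in 97.8% of unperfused and 98.2% of perfused thick limb nuclei, and NRK in 86.2% and 91.0%. In proximal tubule rule nuclei (LRP2 and CUBN together at least 30, SLC12A1 under 20, and SLC12A3 and HS6ST3 under 5 per 10000), which should lack UMOD, 40% and 41.6% still had a UMI of it, at a median depth of 5507 and 6848 UMIs. For SIM2, a transcription factor gene, the share was 56.3% and 69.7% in thick limb nuclei and 0.811% and 2.30% in proximal tubule rule nuclei. Nuclei of the distal convoluted rule also carried UMOD, at 2387 and 2540 CPM, against 3120 and 3796 CPM in the thick limb, whereas their CASR and SIM2 UMIs were few.

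**Figure D1:**
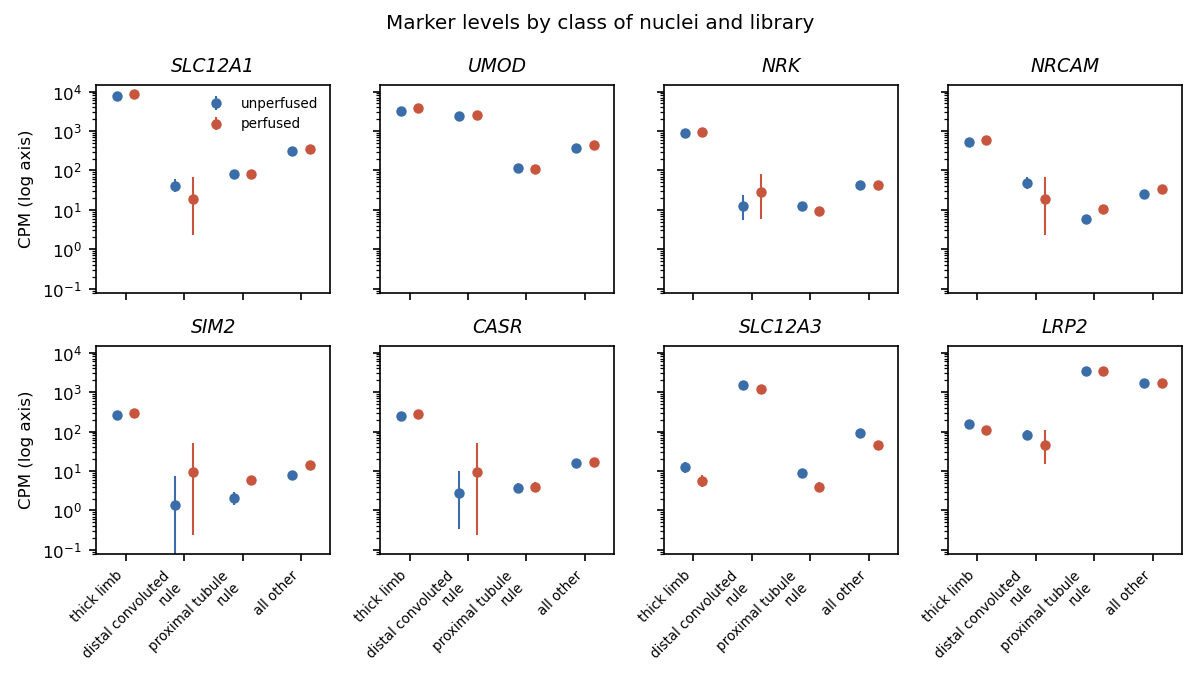
Level of 6 thick limb markers, the distal convoluted tubule marker SLC12A3 and the proximal tubule marker LRP2 (CPM, log axis) in 4 classes of nuclei of the unperfused (blue) and perfused (red) library, with 95% counting intervals. SLC12A1 sat at 7625 and 8593 CPM in thick limb nuclei, and UMOD was the only one of the 6 with a level of the same order in the distal convoluted rule nuclei.

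Genes with a symbol that led thick limb nuclei over all other nuclei in both libraries describe the segment. Genes without a symbol are left out, though some stood higher, such as ENSSSCG00000033103 at 54.1 times without and 33.6 times with perfusion. As the rule chose the nuclei, these ratios are a description. SLC12A1 was 25.2 times its level in other nuclei without perfusion and 24.6 times with it, and UMOD 8.44 and 8.52 times. NRK, a kinase gene, stood at 898 and 955 CPM, which was 21.7 and 22.5 times the level in other nuclei. GP2, which encodes a protein of the same family as uromodulin, was 24.1 and 21.5 times and CASR 16.1 and 16.4 times as high. CLDN16 was 15.4 and 14.4 times as high, and TMEM207, of little known function, 15.1 and 14.2 times. Further genes at 10 times or more in both libraries were the cell adhesion gene NRCAM, the cadherin CDH4, the lipoprotein lipase LPL, the transcription factor IRX2, the borate and proton transporter family member SLC4A11 and the carbonic anhydrase CA9. In all, 42 of the 9405 genes with at least 100 UMIs over both libraries were at least 10 times and 131 at least 5 times as high as in other nuclei of each library.

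Markers of other lineages were present at low level in thick limb nuclei. The 15 proximal tubule genes summed to 818 CPM without perfusion and 715 CPM with it, against 8756 and 8727 CPM in all other nuclei. CUBN held the most of these UMIs (627 and 991). LRP2 and CUBN are in this list and the rule capped them, so the low sum was in part set by the selection. The 10 endothelial genes summed to 470 and 360 CPM, with the most UMIs from ERG (321) without perfusion and PECAM1 (448) with it, and the 9 immune genes to 238 and 257 CPM, mostly CD74. The 10 stromal genes summed to 225 and 251 CPM, with the most UMIs from FHL2 (207) and C7 (437). The 6 podocyte genes in the files summed to 164 and 95.4 CPM, with the most UMIs from CLIC5, and the 8 intercalated cell genes to 167 and 248 CPM, with the most from SLC26A7. None of the genes of these 6 lists was at 0, and their part in the results below was not tested, except where nuclei with such UMIs were left out.

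Thick limb nuclei were not uniform, and the same axis appeared in each library. Over member nuclei, CLDN16 and CLDN10 levels were inversely related, with r = -0.26 in both libraries over 737 and 889 nuclei, which share a library and differ in depth. In nuclei thinned to 1000 UMIs, CLDN10 was found in 21.6% and CLDN16 in 17.5% of 731 unperfused nuclei, and both in 2.05%, where the product of the 2 shares is 3.78%. In 875 perfused nuclei the shares were 22.2% and 19.3%, with both in 2.97% and a product of 4.28%. Without thinning, both claudins were found in 16.1% and 25.1% of nuclei, against products of 23.0% and 29.8%. In proximal tubule rule nuclei, CLDN10 had a UMI in 94.0% and 93.6% and CLDN16 in 0.946% and 1.24% of nuclei. CLDN10 stood at 1070 and 1384 CPM in these nuclei, so its share there is no background for the thick limb. Proximal tubule markers put free RNA at 11.6% and 12.2% of thick limb UMIs. How many CLDN10 UMIs of thick limb nuclei were free RNA was not tested.

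Nuclei with a CLDN16 UMI and no CLDN10 UMI (195 unperfused, 211 perfused) were set beside those with CLDN10 and no CLDN16 (279 and 320). The split was defined from the data, so the ratios are descriptions of each library. A single UMI could set the side, and no background share was taken off for CLDN10. SLC12A1, which the rule held above its threshold on both sides, had a log2 ratio of 0.02 (-0.02 to 0.07) without perfusion and -0.09 (-0.12 to -0.06) with it. UMOD, which took no part in the rule, had -0.05 (-0.12 to 0.02) and -0.09 (-0.14 to -0.04).

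Among the genes on the CLDN16 side were the calcium-sensing receptor and the receptor of parathyroid hormone. CASR had a log2 ratio of 1.08 (0.85 to 1.32) without perfusion and 1.13 (0.95 to 1.31) with it. PTH1R, the latter receptor, had 1.16 (0.82 to 1.5) and 1.25 (0.93 to 1.57). The basolateral potassium channel KCNJ10 had 121 UMIs against 18 and 199 against 24, a log2 ratio of 3.26 and 3.60. TMEM207, a neighbour of CLDN16 in its level over nuclei (r = 0.42 and 0.46), had 277 UMIs against 30 and 440 against 18. The Notch ligand JAG1 had a log2 ratio of 2.64 and 2.73, the splicing factor RBFOX1 1.04 and 1.35, and ENOX1, an oxidase gene, 1.06 and 1.18. KCNJ16, which pairs with KCNJ10 in a channel, was level at -0.03 and -0.04.

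The CLDN10 side carried other genes. KCNIP4, which encodes a potassium channel interacting protein, had 286 UMIs against 35 on the CLDN16 side without perfusion and 732 against 56 with it, a log2 ratio of -2.52 and -3.16. The sodium bicarbonate cotransporter SLC4A7 had -1.63 and -1.45, the heparan sulfate sulfotransferase HS3ST5 -1.58 and -2.05, and NRCAM -1.0 and -0.96. The prostaglandin E receptor PTGER3, which signals against salt reabsorption in this segment, had -0.76 (-0.87 to -0.65) and -0.78 (-0.85 to -0.70). The transcription factors IRX1 and IRX2 had -2.27 and -1.73 without perfusion and -1.72 and -1.36 with it. KCNJ1 had 0.41 (0.10 to 0.71) without perfusion and -0.24 (-0.56 to 0.07) with it, the latter with an interval that includes 0.

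**Figure D2:**
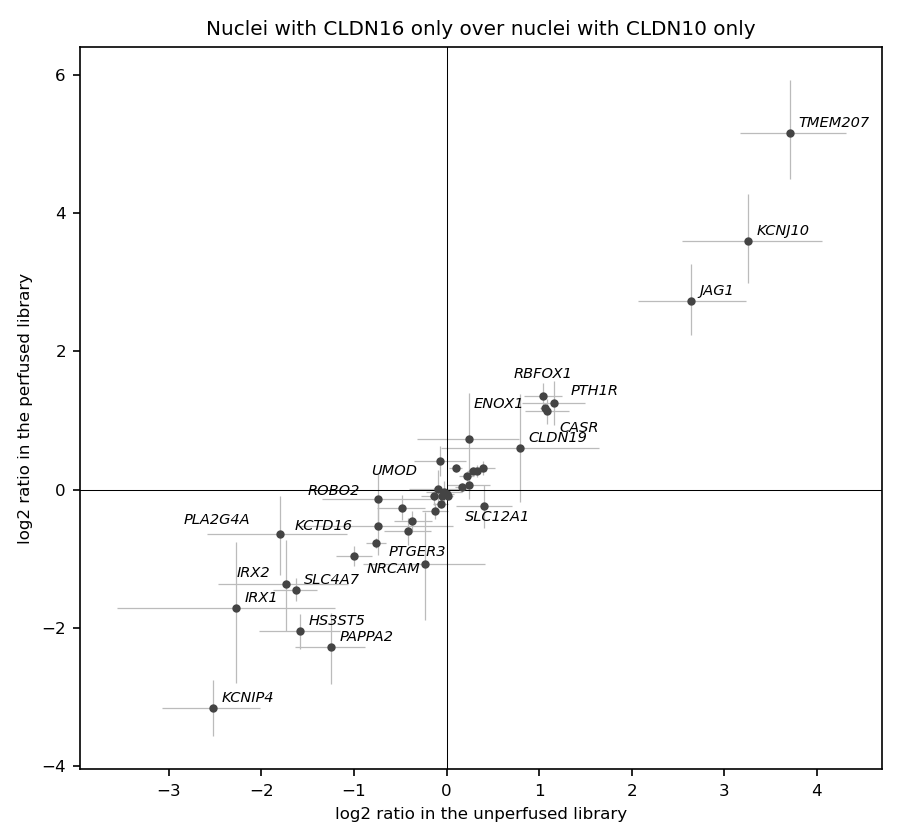
Log2 ratio of nuclei with a CLDN16 UMI and no CLDN10 UMI over nuclei with CLDN10 and no CLDN16, in the unperfused (x axis) and perfused (y axis) library, 1 point per gene with at least 50 UMIs in each library, with 95% counting intervals. TMEM207, KCNJ10 and JAG1 lay at the CLDN16 end and KCNIP4 at the CLDN10 end of each library, while SLC12A1 and UMOD lay near 0.

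Genes listed as cortical or medullary thick limb did not all follow the claudins. Among the cortical genes, TMEM207, KCNJ10 and ENOX1 stood on the CLDN16 side, but THSD4 had -0.13 (-0.28 to 0.02) and -0.10 (-0.23 to 0.03). PPM1E had 7 UMIs against 27 without perfusion, or -1.44 (-2.88 to -0.20), and 9 against 11 with it, or 0.26 (-1.19 to 1.67). CLDN19 had 28 UMIs against 23 and 30 against 29, and TMEM52B 14 against 26 and 10 against 22, too few to place either. Among the medullary genes, MFSD4A (-0.48 and -0.26) and ANK2 (-0.37 and -0.46) stood on the CLDN10 side, while RAP1GAP was level at -0.09 and 0.01 and CYFIP2 had 0.24 and 0.07. KCTD16 was also lower on the CLDN16 side, at 20.1 against 33.5 CPM without perfusion and 49.1 against 70.3 CPM with it. NELL1 was about level, at 32.8 against 32.7 and 13.5 against 14.5 CPM. CLDN14 had 5 UMIs against 4 and 6 against 6. Since all tissue was labelled as kidney and described as cortex, the nuclei are called by their claudin here and not by a zone.

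Relations to CLDN16 were taken over 5529 genes with at least 100 UMIs in each library. Each also had at least 0.5 times its level in other nuclei or was chosen as a reference gene. Among those with a symbol, ENOX1 had the closest relation to CLDN16 over nuclei, with r = 0.49 and 0.50. Among genes with a symbol and at least 200 UMIs in each library, ENOX1 was 1 of the 15 with the largest excess variance. It stood at 16.7 times the Poisson expectation without perfusion and 28.6 times with it. Its median level was 44.1 per 10000 UMIs in unperfused nuclei, with quartiles of 24.6 and 73.5, and 37.8 in perfused nuclei, with quartiles of 20.7 and 64.6. Nuclei with at least 40 per 10000 UMIs made up 56.4% of unperfused and 46.2% of perfused thick limb nuclei. ENOX1 as a whole differed little between the libraries, at 5218 and 4953 CPM.

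A small group of nuclei was rich in PAPPA2, a protease that cleaves binding proteins of insulin-like growth factors and is a known product of the macula densa. PAPPA2 had a UMI in 14% and 9.11% of thick limb nuclei, and in 10.1% and 9.55% of proximal tubule rule nuclei. The perfused share was thus not above that of proximal tubule rule nuclei, but all other nuclei together had 5.43% and 4.79%. At least 5 UMIs were found in 38 unperfused (5.16%) and 27 perfused nuclei (3.04%), which held 440 of 546 and 477 of 566 UMIs. These nuclei also held more of NOS1, the neuronal nitric oxide synthase, with 11 UMIs in 5 nuclei without perfusion and 6 UMIs in 3 nuclei with it. As levels these were 67.5 CPM (33.7 to 121) against 6.30 in the remaining nuclei, and 32.3 CPM (11.8 to 70.3) against 2.51. PTGS2 had 2 UMIs in each library, and CALCR had 0. Of the other listed macula densa genes, PPFIA2 had a log2 ratio of -0.65 and 0.16 over the remaining nuclei and ROBO2 -0.29 and 1.25, and AVPR1A had 1 UMI and 0. As most of the list gave few UMIs or no common direction, the nuclei are called PAPPA2-rich only.

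PAPPA2-rich nuclei had less UMOD than the others. The log2 ratio of SLC12A1, the gene of the rule, was 0.11 (0.03 to 0.19) without perfusion and -0.11 (-0.18 to -0.03) with it, and that of UMOD was -0.58 (-0.74 to -0.42) and -0.55 (-0.68 to -0.42). The phospholipase PLA2G4A, which frees arachidonic acid, had 3.04 and 2.49, and the 5'-nucleotidase NT5C1A had 2.11 and 3.08. ACSL4 and PLCB1 were also higher, at 1.12 and 1.63 and at 0.68 and 0.72. CLDN10 was higher (0.91 and 0.52), and CLDN16 (-1.46 and -0.66), NRCAM (-1.38 and -1.80) and PTGER3 (-0.67 and -1.01) were lower. HS3ST5 had 3 UMIs and 1 UMI in these nuclei.

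Most other genes with a symbol and a large excess variance were below their level in other nuclei of each library. Some had a large part of their UMIs in 1 nucleus. CCBE1 had 314 UMIs without perfusion, of which 105 were in 1 nucleus, and 816 UMIs with perfusion, of which 374 were in 1 nucleus. SLC26A7, an anion exchanger of intercalated cells, had 45 of 226 and 151 of 660 UMIs in the richest nucleus. PDE1C, SLC4A4, SLC16A9, CUBN, LDB2, EBF1, ADGRF5, PDE3A and GRAMD1B were also below their level in other nuclei, and they had UMIs in 40 (PDE1C) to 411 (ADGRF5, perfused) nuclei of a library. Of the 15 genes with a symbol and the largest excess variance, 4 were above their level in other nuclei of both libraries, namely ENOX1, PAPPA2, SLC12A1 and IL1RAPL2.

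Perfused and unperfused thick limb nuclei were then compared by the UMIs summed over the nuclei of each library. Of 9405 genes with at least 100 UMIs over both libraries, 26 (0.276%) were at least 2-fold higher and 166 (1.77%) at least 2-fold lower with perfusion. The median log2 ratio of all genes was -0.04, with quartiles of -0.23 and 0.13, and 44.3% of genes were above 0. The counts of the gene lists given further on are to be read against these shares. Of the genes past 2-fold, 22 of the 26 and 150 of the 166 had under 500 UMIs. Among all genes compared, 2437 had 100 to 200 and 3134 had 200 to 500 UMIs. Genes past 2-fold were more frequent at low counts. They numbered 14 higher and 97 lower of the 2437 genes, against 4 and 5 of the 2035 genes with 1000 UMIs or more. A symbol was given for 76 of the 166 lower genes and for 18 of the 26 higher ones.

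**Figure D3:**
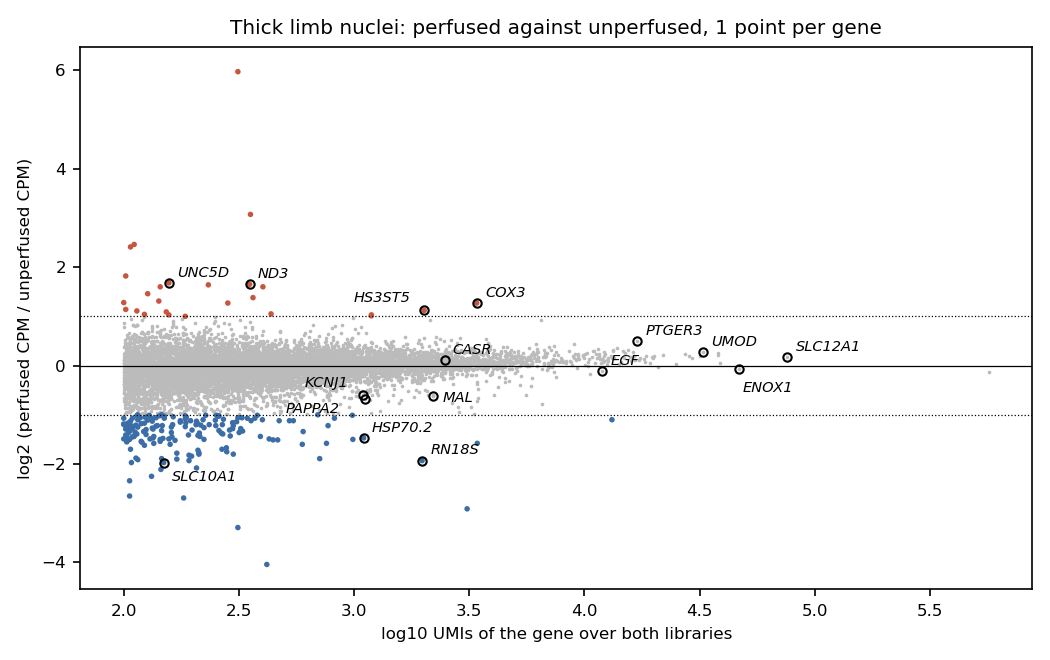
Log2 ratio of perfused over unperfused CPM in thick limb nuclei (y axis) against the UMIs of the gene over both libraries (x axis, log10), 1 point per gene for 9405 genes, with dotted lines at 2-fold and genes past them in red and blue. Abundant thick limb genes such as SLC12A1, UMOD and CASR lay between the dotted lines, and most points beyond them had few UMIs.

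The segment's markers differed by less than 2-fold between the libraries, SLC12A1 being the rule's own gene. SLC12A1 had 7625 CPM without and 8593 CPM with perfusion, a log2 ratio of 0.17 (0.15 to 0.19). UMOD had 3120 and 3796 CPM, or 0.28 (0.25 to 0.32) on the same scale. CASR (0.11), NRK (0.09), SIM2 (0.17) and NRCAM (0.19) differed by less, CASR with an interval that includes 0, and NRK had -0.03 in thinned nuclei. Of 716 genes at least 2-fold over other nuclei in each library, 5 (0.698%) were past 2-fold higher and 17 (2.37%) past 2-fold lower with perfusion, against 0.276% and 1.77% of all genes, and their median log2 ratio was 0.04. A gene much lower in 1 library can drop out of this set, so its counts are a description.

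Salt transport genes differed in both directions. Of 21 compared, 10 had a log2 ratio above 0 and 11 below it, with a median of -0.07, and 0 were past 2-fold, where 44.3% of all genes were above 0 and 0.276% and 1.77% past 2-fold. ATP1B1, the beta subunit of the sodium pump, had 1080 and 1137 CPM, or 0.07 (0.02 to 0.13) on the log2 scale, and turned to -0.08 in thinned nuclei. The kinase STK39, which phosphorylates NKCC2, had 0.16 (0.09 to 0.22). Lower with perfusion were the potassium channel KCNJ1 (151 and 99.2 CPM), at -0.60 (-0.78 to -0.43), and MAL (302 and 198 CPM), a protein of apical membrane sorting, at -0.61 (-0.73 to -0.49). WNK1, a kinase upstream of STK39, had -0.48 (-0.57 to -0.38) and KLHL3, part of the ligase complex that degrades WNK kinases, -0.57 (-0.83 to -0.32). The chloride exchanger SLC4A2 had -0.59 (-0.95 to -0.23). KCNJ1 and MAL were also lower in all other nuclei, at -1.04 and -0.66.

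The 16 genes of divalent cation transport and tight junctions had a median of -0.04, with 7 above and 9 below 0. CLDN10 (-0.06), CLDN16 (0.04) and CASR (0.11) had intervals that included 0 over all nuclei. Within ENOX1-rich nuclei CLDN16 had 0.18 (0.05 to 0.32), and within ENOX1-poor nuclei 0.27 (0.00 to 0.55). PTH1R had 124 and 104 CPM, which is -0.26 (-0.44 to -0.08) on the log2 scale. Within ENOX1-rich nuclei it had -0.08 (-0.29 to 0.13) and within ENOX1-poor nuclei -0.30 (-0.64 to 0.05), and both intervals include 0. TRPM7, a magnesium channel, had 0.11 (0.03 to 0.19) and the magnesium transporter gene CNNM2 -0.12 (-0.21 to -0.04).

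Among the secreted proteins, UMOD, GP2 (0.21, but -0.16 in thinned nuclei), the defensin DEFB1 (0.13) and the protease HPN (0.22) were higher. PAPPA2, summed over all thick limb nuclei, was lower, with 156 and 98.3 CPM or -0.67 (-0.84 to -0.50). Most of its UMIs lay in the PAPPA2-rich nuclei, which PAPPA2 itself defined. Its level there was 2700 CPM (2454 to 2965) without perfusion and 2566 CPM (2341 to 2807) with it. These nuclei made up 5.16% of unperfused and 3.04% of perfused thick limb nuclei. In the remaining nuclei PAPPA2 was also lower with perfusion, on 106 and 89 UMIs. Epidermal growth factor (EGF) had -0.12 (-0.17 to -0.07), and osteopontin (SPP1), with 79 and 77 UMIs, -0.76 (-1.23 to -0.29). The list's median was -0.08 over 12 genes.

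Of 14 transcription factor genes of the segment, 9 were above 0, against 44.3% of all genes, and their median was 0.04. The coactivator PPARGC1A, a regulator of mitochondrial number, had 0.20 (0.16 to 0.25), and PAX2, a factor of kidney development, 0.25 (0.12 to 0.38). TFAP2B (-0.30), IRX1 (-0.46) and IRX2 (-0.31) were lower.

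Receptors and signalling genes were spread about a median of -0.04 over 19 genes. PTGER3 was the highest of these, at 1466 CPM without and 2055 CPM with perfusion, a log2 ratio of 0.49 (0.44 to 0.53). The median nucleus had 12.4 per 10000 UMIs of PTGER3 (quartiles 5.81 and 22.3) without perfusion and 18.2 (9.11 and 29.5) with it, so the middle ranges overlapped. ERBB4, a receptor of the epidermal growth factor family, had 0.24 (0.21 to 0.28). The glucagon receptor GCGR was the lowest of the list, with 105 and 68.6 CPM or -0.61 (-0.82 to -0.40). The kinase SGK1 had -0.36 (-0.60 to -0.11).

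By the size of the ratio alone, HS3ST5 was most in favour of perfusion among genes with a symbol that were at least 5 times as high as in other nuclei of both libraries. Genes without a symbol, some of them with larger ratios, are left out of this order. HS3ST5 had 440 UMIs in 161 unperfused and 1576 UMIs in 309 perfused nuclei, or 126 and 274 CPM, a log2 ratio of 1.12 (0.97 to 1.28). In proximal tubule rule nuclei HS3ST5 had 0.99 and in all other nuclei 0.74. Among ENOX1-rich nuclei it had 1.24 (0.94 to 1.55) and among ENOX1-poor nuclei 0.90 (0.72 to 1.08). In the same order, and chosen after their values were seen, followed DSCAML1 (0.57), INAVA (0.54), WNT7B (0.50), the transcript of a Wnt ligand, ANKRD33B (0.50), PTGER3, BICDL1 (0.44), the growth factor TGFA (0.44), LANCL3 (0.38) and the growth factor FGF9 (0.35). At the low end of the genes with a symbol were NDST4 (-0.88), HPCAL4 (-0.85), CD86 (-0.70), NT5C1A (-0.68), PAPPA2, KCNJ1, IRX1 (-0.46), FLRT1 (-0.43), RBFOX1 (-0.37) and SLC4A11 (-0.33). CD86, known as a costimulatory molecule, had 795 and 808 UMIs in 347 and 388 nuclei, 227 and 140 CPM. Outside the thick limb these genes went both ways. In proximal tubule rule nuclei and all other nuclei ANKRD33B had 1.43 and 0.80, TGFA 0.77 and 0.49, and INAVA -0.32 and -0.20. Of the low end, NDST4 had -1.44 and -0.72 there and CD86 -0.67 and 0.38.

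The 15 largest ratios in favour of perfusion, among genes with a symbol, at least 100 UMIs in the richer library and an interval without 0, included 3 mitochondrially encoded genes. COX3, a subunit of cytochrome oxidase, was at 196 CPM without and 473 CPM with perfusion, a log2 ratio of 1.27 (1.15 to 1.39), ND3 had 1.65 (1.24 to 2.09) and ATP6 1.03 (0.83 to 1.23). Without nuclei that held endothelial, immune or stromal UMIs these were 0.71, 1.15 and 0.43, so COX3 and ATP6 were then under 2-fold. KCTD16, an auxiliary subunit of GABA-B receptors, had 99 and 337 UMIs, 1.05 (0.72 to 1.39), and TRMT9B 1.31. UNC5D (1.68), SPATA22 (1.64), DCN (1.60), a stromal gene, TTC39C (1.46), GAS7 (1.09), MOCS1 (1.03), AADAT (1.0) and PRKCB (0.93) were at or below 0.722 times their level in other nuclei. With doublets removed UNC5D had 0.41 and AADAT 0.16, with free RNA subtracted they had 2.64 and 2.05 and MOCS1 had 3.20, in thinned nuclei TTC39C had 3.26 and GAS7 3.74, and 26 of 132 perfused UMIs of UNC5D and 29 of 142 of AADAT lay in 1 nucleus. DCN had -0.11 once nuclei holding endothelial, immune or stromal UMIs were left out, and 2.74 at its highest alternative. ATP6V1C2 (1.38), a proton pump subunit of intercalated cells, had its 295 perfused UMIs in 24 nuclei. Its ratio was 0.30 with SLC12A1 at least 40 per 10000 UMIs, and 3.51 at its highest alternative.

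The 15 largest ratios against perfusion were taken by the same rule. SLC10A1, a bile acid transporter, had 105 and 44 UMIs, a log2 ratio of -1.97 (-2.52 to -1.45). The 18S ribosomal RNA gene RN18S was at 394 and 104 CPM, -1.93 (-2.07 to -1.79), with 167 of its 1377 unperfused UMIs in 1 nucleus, and was -1.78 without the richest nucleus of each library. HSP70.2, an inducible heat shock protein 70, had 689 UMIs in 240 unperfused and 411 UMIs in 167 perfused nuclei, 197 and 71.4 CPM, -1.47 (-1.64 to -1.29). PTPRQ had 74 of 144 unperfused and 59 of 68 perfused UMIs in 1 nucleus each, and its ratio turned to 2.14 with doublets removed. GTSF1, CDK1, LRRC74B, HPSE2, NELL1, NFE2L3, CD80, SLC1A2, PTPRZ1 and GGCX lay between -1.80 and -1.26, each with 203 or fewer UMIs per library. In thinned nuclei SLC10A1 had -1.26, CDK1 -0.02, HPSE2 -0.70 and SLC1A2 -0.73, and CDK1 was at 0.0774 and 0.0634 times its level in other nuclei.

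These ratios can be read beside those of other nuclei, which come from the same 2 libraries and so share any difference between them. For the 166 lower genes, the median was -1.31 (log2) in the thick limb, -1.48 in proximal tubule rule nuclei and -1.30 in all other nuclei. The 26 higher genes had medians of 1.29, 0.58 and 0.67. PLPPR1, which had the most UMIs of the lower genes and is named here for that reason, had -1.10 in the thick limb (7444 and 5726 UMIs), -1.62 in proximal tubule rule nuclei and -1.55 in all other nuclei. An unnamed gene, ENSSSCG00000041461, had the lowest ratio of all, with 380 UMIs in 266 nuclei and 38 UMIs in 36 nuclei (-4.04), and -3.79 in proximal tubule rule nuclei. At the other end ENSSSCG00000038719 had 3 and 310 UMIs, the latter in 50 nuclei, and 34 and 145 UMIs in proximal tubule rule nuclei.

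**Figure D4:**
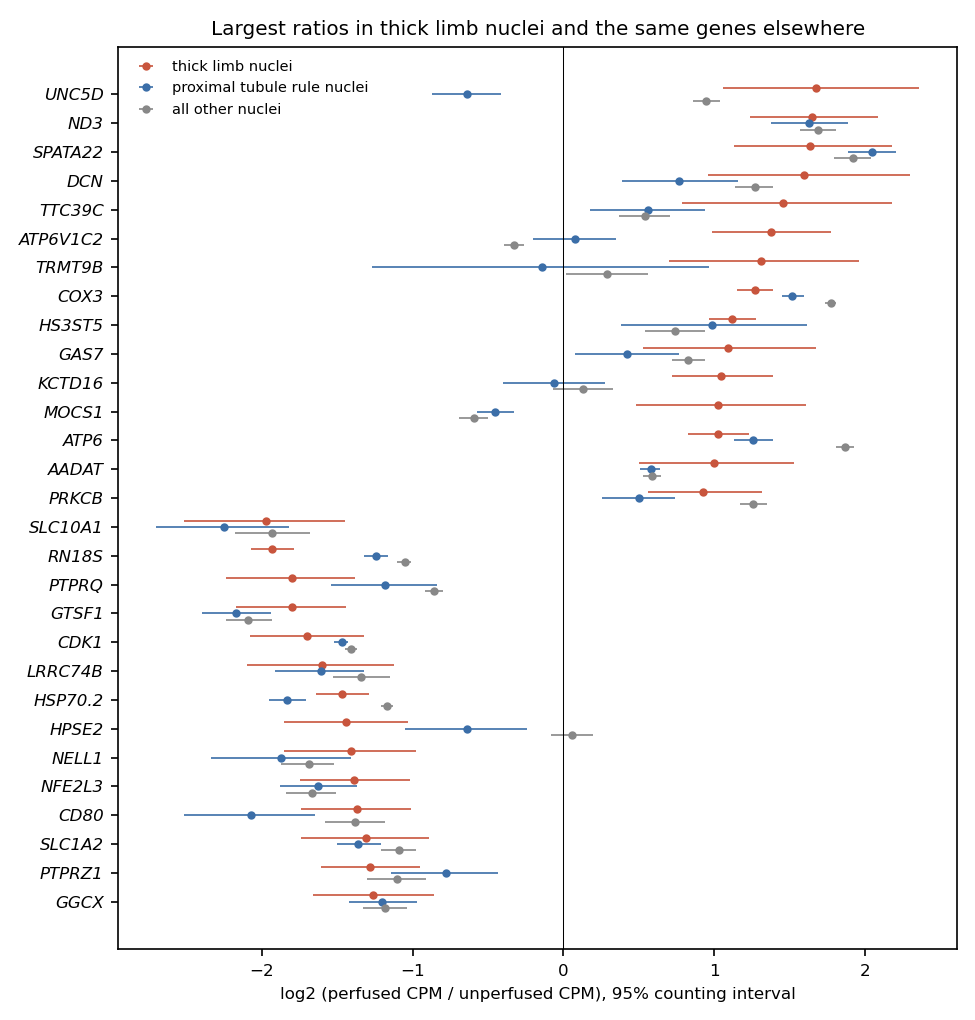
Log2 ratio of perfused over unperfused CPM, with 95% counting intervals, for the reported genes among the 15 largest ratios in each direction in thick limb nuclei (red) and for the same genes in proximal tubule rule nuclei (blue) and all other nuclei (grey). SLC10A1 had -1.97 in the thick limb and -2.25 in proximal tubule rule nuclei, while UNC5D had 1.68 and -0.64. UNC5D had 0.95 in all other nuclei and rested on 25 and 132 UMIs in the thick limb, 26 of the latter in 1 nucleus.

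Heat shock genes were uneven. Of 20 listed genes compared, HSP70.2 not among them, 13 were below and 7 above 0, with a median of -0.23 against -0.04 for all genes, and 0 were past 2-fold. In thinned nuclei, where fewer of these genes could be compared, the median was 0.25. The cochaperone DNAJB1 had 81.8 and 41.9 CPM, which is -0.97 (-1.22 to -0.71), CACYBP had -0.91 (-1.12 to -0.69), the mitochondrial cochaperonin HSPE1 -0.88 (-1.21 to -0.56), the constitutive HSPA8 -0.82 (-1.06 to -0.57) and HSPH1 -0.75 (-1.01 to -0.49). HSP90AA1 was higher at 239 and 276 CPM, 0.21 (0.09 to 0.33), as were the small heat shock protein CRYAB (0.43) and HSPA4 (0.29). In all other nuclei DNAJB1 had -0.68, HSPA8 -0.38 and HSPH1 -0.17. The list's median was -0.15 in proximal tubule rule nuclei and -0.18 in all other nuclei, and HSP70.2 had -1.83 and -1.17 there.

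Other response lists had medians close to that of all genes. The 13 immediate early genes with enough UMIs had a median of -0.02, with EGR1 (25 and 75 UMIs) at 0.87 (0.20 to 1.58), ZFP36 at 0.64 and NR4A1 at -0.90 (-1.45 to -0.34), and all other nuclei had a median of 0.43. Over the 13 alternatives to the processing given below, EGR1 ranged from 0.19 to 1.05 and NR4A1 from -1.38 to -0.36. The 22 hypoxia genes had a median of 0.05: NDRG1 (0.34) and EGLN1 (0.31) were higher, and PGK1 (-0.82), DDIT4 (-0.61) and VEGFA (-0.32) were lower. The 6 NF-kB targets with enough UMIs had a median of 0.01. The 13 genes of the unfolded protein and amino acid response had -0.10, with the chaperone HSPA5 at -0.54 (-0.86 to -0.23). The 10 glucocorticoid targets had 0.10, 9 of them above 0, and the 7 osmotic response genes -0.12, with the osmotic regulator NFAT5 at 0.23 (0.15 to 0.32).

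The 15 tubule injury genes with enough UMIs had a median of -0.25. S100A6, a calcium-binding protein, had 48.9 and 21.9 CPM, -1.16 (-1.5 to -0.82) as a log2 ratio, and was the 1 gene of the list past 2-fold. Tropomyosin 1 (TPM1) was higher, at 168 and 248 CPM, 0.56 (0.42 to 0.70). TPM1 is also 1 of 18 regulators and targets of MRTF and YAP, factors that respond to mechanical load. That list had a median of 0.00 in the thick limb and 0.37 in all other nuclei, and ACTB, encoding beta-actin, had -0.07 in the thick limb and 1.04 elsewhere. MRTFA (0.01), MRTFB (-0.05) and YAP1 (-0.11) had intervals that included 0.

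The 10 mitochondrially encoded genes with enough UMIs had a median of 0.75 in the thick limb, the highest of all lists, 1.30 in proximal tubule rule nuclei and 1.65 in all other nuclei. Without nuclei that held a UMI of any of 11 endothelial, immune and stromal genes, the thick limb value was 0.06, over 9 genes. Nuclear genes of mitochondrial energy supply had a median of -0.03 over 26 genes, with the fatty acid enzyme HADHA at -0.50 and the palmitoyltransferase CPT1A at 0.19. The 63 cytosolic ribosomal protein genes had 0.02 in the thick limb and 0.73 in all other nuclei, and without the same nuclei the thick limb value was -0.44.

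**Figure D5:**
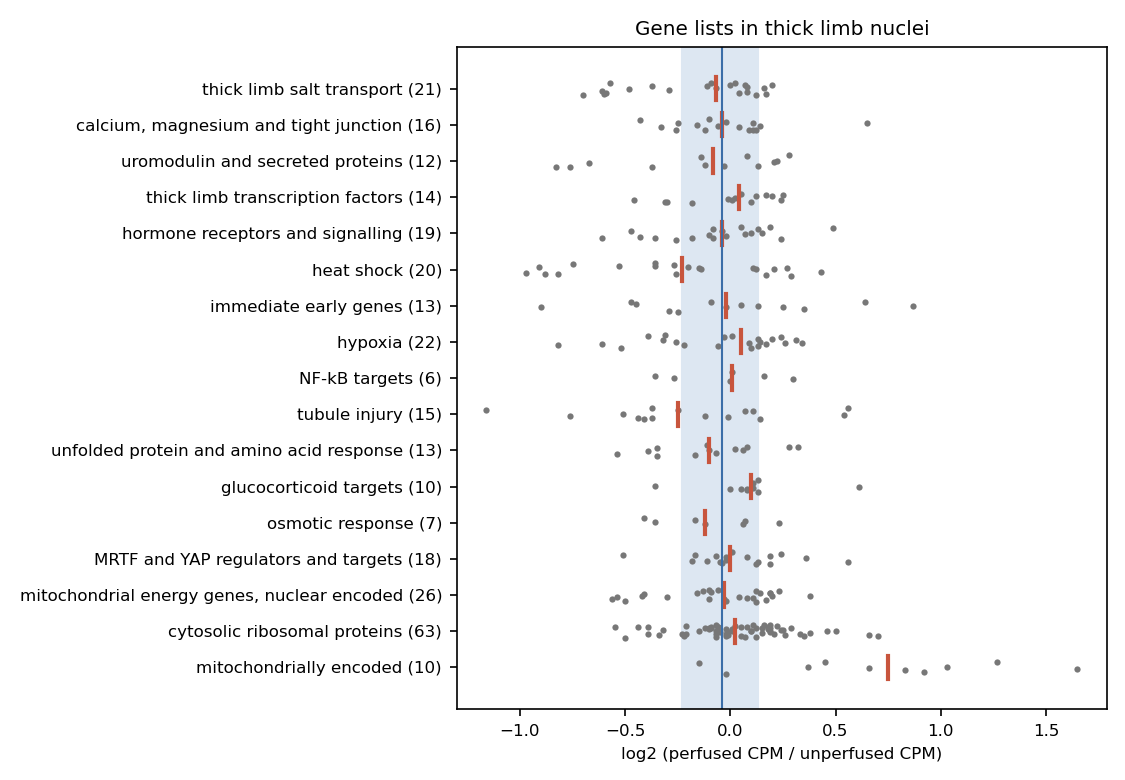
Log2 ratio of perfused over unperfused CPM of the genes of 17 lists in thick limb nuclei, 1 grey point per gene, with the number of genes compared in brackets. Red bars mark the median of a list, the blue line the median of all genes (-0.04) and the shaded band their quartiles (-0.23 to 0.13). The mitochondrially encoded genes, with a median of 0.75, were the 1 list whose bar lay well outside the band, and the bars of heat shock (-0.23) and tubule injury (-0.25) lay at its edge.

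The mix of ENOX1-rich and ENOX1-poor nuclei differed between the libraries, so selected ratios were also taken within each, as above for HS3ST5, PTH1R and CLDN16. PTGER3 had 0.32 (0.25 to 0.40) among ENOX1-rich and 0.53 (0.46 to 0.59) among ENOX1-poor nuclei. KCNJ1 had -0.67 and -0.41, MAL -0.62 and -0.57, and WNK1 -0.37 and -0.46. PAPPA2 had -0.37 (-0.57 to -0.16) and -1.01 (-1.35 to -0.68). HSP70.2 had -2.0 (-2.31 to -1.69) and -1.24 (-1.47 to -1.02), DNAJB1 -1.06 and -1.0, and HSPH1 -1.46 (-1.90 to -1.04) and -0.27 (-0.63 to 0.10). The interaction of side and perfusion was not tested.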

How the data were processed

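The authors aligned reads with Cell Ranger 5.0.1 to a reference from Ensembl release 103 of the pig genome, counting introns, and deposited the raw counts of UMIs for each barcode, not normalized. Barcodes beyond the study's limits on genes and mitochondrial share were present, so the counts stand before its filters. That they also stand before its correction for ambient RNA was assumed, since they are whole numbers. Whether counting used strand is not given in the sources used here, so genes that overlap cannot be told apart. No gene lengths were used, so where the gene with the most UMIs of a list is named, this orders UMIs and not levels per length.

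UMIs of member nuclei were summed per library, divided by the library's total over these nuclei (CPM) and compared as log2 ratios for genes with at least 100 UMIs over both libraries. Ratios have exact conditional binomial intervals, CPM exact Poisson intervals and shares Clopper-Pearson intervals. A count of 0 was set to 3 counts. Excess variance is the variance over nuclei relative to the Poisson expectation from their totals. Scrublet (in scanpy) marked 8.59% of unperfused and 8.21% of perfused barcodes as doublets, among them 74 and 108 member nuclei, which were kept and left out as an alternative. Proximal tubule markers put free RNA at 11.6% and 12.2% of member UMIs. Relations between genes used residuals clipped at 10. Python 3.11.15, numpy 2.4.6, scipy 1.17.1, pandas 2.3.3, scanpy 1.11.5, matplotlib 3.10.9 and R 4.3.3 were used, and scripts were tested on simulated data. Of 416 genes in 29 lists, 391 were in the files, and the other 25 were not analysed here. In the files 811 rows took a symbol from a table of gene names.

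Named genes were the 15 largest ratios in each direction (at least 100 UMIs in the richer library, interval without 0). The 20 genes leading over other nuclei and the 15 with the largest excess variance were also named. All these rankings held only genes with a symbol. Members of the lists and the genes of the rule were named too. Some genes of the lists and of the naming rule are not reported here, though they remain in the counts and medians of lists. Members, lists and rules were chosen with earlier results of these data known. The claudin, ENOX1 and PAPPA2 splits and the genes of the 5-fold set were chosen after seeing values. Alternatives covered filters on nuclei, thinning, weighting, free RNA, edgeR's TMM (4.0.16) and DESeq2's size factors (1.42.0).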

Additional observations from a re-analysis of the deposited data

Results flagged for a closer look

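Of 350 named or listed genes, 16 had opposite ratios (log2, perfused over unperfused) in thick limb and proximal tubule rule nuclei, with neither counting interval reaching 0. The difference between the cell types was not tested, as each condition has 1 library. Higher in the thick limb and lower in proximal tubule rule nuclei were UNC5D (1.68 and -0.64), MOCS1 (1.03 and -0.45), SLC26A7 (0.83 and -0.28), ZFP36 (0.64 and -0.50), SLC25A4 (0.38 and -0.40), IER3 (0.25 and -0.37), DNAJB4 (0.17 and -0.12), ESRRB (0.10 and -0.27) and NRK (0.09 and -0.40). Lower in the thick limb and higher in proximal tubule rule nuclei were IL1RAPL2 (-0.71 and 0.15), GCGR (-0.61 and 1.13), CD44 (-0.41 and 0.11), GRAMD1B (-0.30 and 0.45), PTH1R (-0.26 and 0.27), THSD4 (-0.21 and 0.21) and CNNM2 (-0.12 and 0.14). GCGR rested on 366 and 395 UMIs in the thick limb and on 111 and 220 UMIs in proximal tubule rule nuclei. In the latter, NRK rested on 169 and 116 UMIs (12.4 and 9.41 CPM, against 898 and 955 CPM in the thick limb). IER3 rested on 160 and 112 UMIs there and ESRRB on 348 and 262. Such low levels may be free RNA of other nuclei, and no background share was taken off. Whether NRK, IER3 and ESRRB differed in proximal tubule itself was therefore not tested. The thick limb direction of 3 of these genes was not kept under every alternative: SLC26A7 had 0.00 with SLC12A1 at least 40 per 10000 UMIs and -0.01 in thinned nuclei, NRK had -0.03 in thinned nuclei, and GRAMD1B had 0.00 with SLC12A1 at least 40 and -4.94 with free RNA subtracted. Within ENOX1-rich and ENOX1-poor thick limb nuclei, PTH1R had -0.08 (-0.29 to 0.13) and -0.30 (-0.64 to 0.05), with 0 inside both intervals. In the thick limb, UNC5D stood at 0.142 and 0.235 times its level in other nuclei and MOCS1 at 0.125 and 0.384 times. SLC26A7 stood at 0.152 and 0.420 and GRAMD1B at 0.119 and 0.0718 times. Of the perfused UMIs, 26 of 132 of UNC5D and 151 of 660 of SLC26A7 lay in 1 nucleus. Whether UMIs of these genes came from the thick limb itself was not tested.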

How the results depend on the processing

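Of 350 named or listed genes, 156 had an interval without 0, and 141 of these kept their direction under each of the 13 alternatives that gave them a value. Counts past 2-fold (26 higher, 166 lower) became 5 and 20 of 3459 genes when nuclei were thinned to 1000 UMIs, 167 and 850 of 14344 with at least 20 UMIs per gene, 595 and 2062 of 17864 with at least 1, and 146 and 599 at a fold of 1.5. The share of higher genes among those past the fold was 13.5%, or 20% after thinning and 22.4% with at least 1 UMI. TMM and DESeq2's size factors moved the median of all genes to 0.00 and gave 29 higher genes each, with 155 and 154 lower.

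Without nuclei holding a UMI of another lineage (472 and 528 nuclei left), the medians were 0.07 for secreted proteins, 0.08 for transcription factors, -0.44 for ribosomal proteins and 0.06 for mitochondrially encoded genes, and the shares of thick limb nuclei 6.71% and 8.92%. With SLC12A1 at least 40 per 10000 the shares were 9.35% and 13.9%. Transcription factors had 0.07 after thinning, with TMM and with DESeq2's size factors, and thinning gave 0.25 for heat shock (5 genes) and 0.24 for NF-kB targets (3 genes).

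These directions were reversed. Without nuclei of another lineage's UMIs, DCN had -0.11, RPL32 -0.34, RPL19 -0.14, CALD1 -0.08, COX1 -0.32 and ND4 -0.49. Thinned, HSF2 had 0.43, GP2 -0.16, ATP1B1 -0.08, NRK -0.03, RPL19 -0.02 and SLC26A7 -0.01. With SLC12A1 at least 40, ND4 had -0.01, CCBE1 -0.50, and SLC26A7 and GRAMD1B 0.00. PTPRQ had 2.14 with doublets removed and CALD1 -0.09 with free RNA subtracted. With ENOX1-rich and ENOX1-poor nuclei weighted equally, an alternative added after seeing the data, ENOX1 had 0.08. Causes were not tested beyond what each alternative leaves out. No paired analysis was possible because each condition has 1 library. The 1 library per condition limits all results, and depth limits genes under about 100 UMIs.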
